A study of Mus musculus with 8 samples.

Results

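The 9 genes described here encode parts of the machinery with which a cell senses viral RNA and answers interferon. They comprise the interferon receptor subunits Ifnar1 and Ifnar2, the signal transducer Stat2, the interferon regulatory factors Irf1, Irf3, Irf7 and Irf9, and the RNA sensors Ifih1 and Ddx58. The genes were listed by symbol, with earlier results of these data known. All 9 were found among the 18194 genes that the arrays represent by a probe set with a single gene symbol. Each gene was represented by its brightest probe set, by the mean over the 8 arrays, and its other probe sets served as a check.

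Type I interferons bind a receptor built of the Ifnar1 and Ifnar2 chains, whose kinases phosphorylate STAT transcription factors. Among these, STAT2 joins IRF9 in a complex that binds interferon-stimulated response elements and switches on antiviral genes, among them the genes of its own subunits, of Irf7 and of the cytosolic RNA sensors. The sensors MDA5 and RIG-I, encoded by Ifih1 and Ddx58, signal through the adaptor MAVS to activate IRF3 and IRF7, which induce interferon, and fat cells carry this system alongside their metabolic programme.

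The cells were mouse 3T3-L1 fibroblasts that had been differentiated in culture into adipocytes and then made insulin resistant in one of 3 ways. The TNF model (3 arrays) received the inflammatory cytokine tumour necrosis factor, the Dex model (3 arrays) received dexamethasone, a synthetic glucocorticoid, and the CI model (2 arrays) received chronic insulin, at doses and times not given in the sources used here. All 3 models also received MnTBAP, a manganese porphyrin that acts as an antioxidant, for the last 6 hours. Neither untreated cells nor cells without MnTBAP were analysed here, so each difference is between models, and a lower level in TNF or Dex cannot be told apart from a higher level in CI.

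The deposited values were probe set intensities, taken here to log2, and an array's median gene lay at 7.89 to 7.93 on that scale. A gene was said to rise, fall or change when its adjusted p in limma was under 0.05 and its log2 difference exceeded 0.5. The labels do not say whether the arrays of a model stem from separate cultures, and the p-values therefore reflect only the spread among these samples, possibly a technical one. The sample labels name the tissue as preadipocytes. The adipocyte marker Adipoq, which encodes adiponectin, stood at 14.31 in TNF, 14.37 in Dex and 14.36 in CI. Other adipocyte markers differed between the models, as described below. Most measured preadipocyte and fibroblast markers were bright too. Dlk1, Col3a1, Col1a1, Pdgfra, Pdgfrb and Thy1 stood at 9.9 or above in every model, and Zfp521 at 8.31 in TNF, 8.67 in Dex and 7.82 in CI. In TNF, Dex and CI, Dlk1 stood at 13.03, 12.2 and 12.91 and Col3a1 at 13.72, 12.48 and 13.77, while Cd34 stood at 5.78, 5.44 and 5.57. Of the leukocyte markers, the pan-leukocyte gene Ptprc stood at 4.66 in TNF, 4.63 in Dex and 4.60 in CI, far below the median gene, whereas Lyz2, Cd14, Csf1r and Cd3e lay above it. In RNA from a whole culture, fewer cells of a type and less RNA per cell cannot be told apart, which holds for every level below.

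In the 5 members with the widest range over the arrays, Stat2, Irf9, Irf7, Ifih1 and Ddx58, every Dex array lay below both CI arrays by more than 1 log2 unit. These genes were grouped by their range over the same arrays, so a wide gap between some arrays was built into the choice. The share of all genes with such a gap was not counted. Among the promoters of these genes, 3 contained the core of an interferon-stimulated response element, searched as TTTC, a gap of 2 bases and TTTC again on both strands of the 300 bases around each start. The promoters of Irf7 and Irf9 held no match. The sites are shown because they match the core of the element that the STAT2-IRF9 complex is known to read. A core match does not name the factor that binds it. The match is in capitals, from RefSeq on build GRCm38.p6.
Stat2: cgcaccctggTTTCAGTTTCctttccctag
Ddx58: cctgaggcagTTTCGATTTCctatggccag
Ifih1: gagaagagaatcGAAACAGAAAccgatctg
The Stat2 window lay at chr10:128270266-128270295 on the plus strand, with the match at positions -222 to -213 from the annotated start. The Ddx58 window lay at chr4:40239804-40239833 on the minus strand, with the match at bases 3 to 12 of the transcript. The Ifih1 window lay at chr2:62646206-62646235 on the minus strand, with the match at bases 33 to 42 of the transcript in the reverse orientation. All 9 members were matched to the promoter table, which gave 11 promoters because Irf1 and Irf9 have 2 each. The element occurred in 3 of those 11, against 3.44% of all 32851 promoters in the table. A match describes letters only and no binding was measured.

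**Figure D1:**
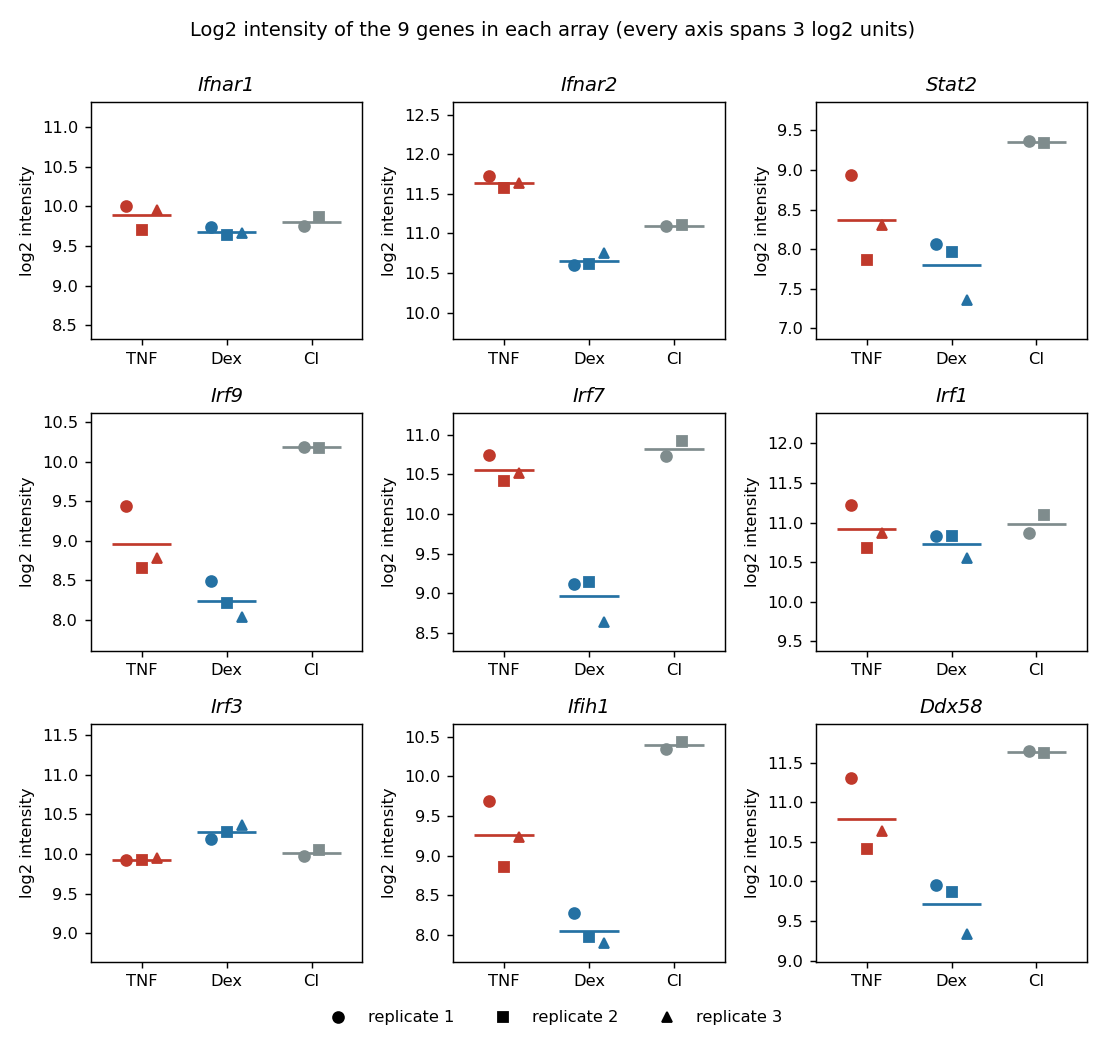
Log2 intensity (vertical axis, each spanning 3 log2 units) of the 9 genes in the TNF, Dex and CI arrays, with a point per array, its shape giving the replicate, and a bar at the model's mean. Stat2, Irf9, Ifih1 and Ddx58 were highest in CI, Irf7 was lowest in Dex with TNF and CI overlapping, Ifnar2 was highest in TNF, and Ifnar1, Irf1 and Irf3 spanned 0.36, 0.67 and 0.44 over the 8 arrays.

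Of the 2 receptor chains, Ifnar2 was called in both contrasts with TNF and Ifnar1 in none. Ifnar2, the chain that binds interferon with the higher affinity, had log2 intensities of 11.72, 11.57 and 11.63 in TNF, of 10.60, 10.61 and 10.75 in Dex, and of 11.09 and 11.10 in CI. The models did not overlap, with TNF above CI and CI above Dex. Ifnar2 rose in TNF by 0.55 ± 0.08 (SE) over CI, or 1.46-fold (limma adjusted p = 0.0005984), and by 0.99 ± 0.07 over Dex, or 1.99-fold (limma adjusted p = 2.323e-06). In Dex it differed from CI by -0.44 ± 0.08 (limma adjusted p = 0.001857), which is under the size limit. The rise over CI was close to the same limit, since it was 0.50 when arrays were centred on their medians and 0.48 with the beta-actin RNA-quality measure as a covariate. The other 2 probe sets of Ifnar2 had TNF minus CI differences of 0.37, not called, and 0.93, called, and both were called higher in TNF than in Dex, by 0.53 and 1.16.

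Ifnar1, the second chain, had values of 10.00, 9.70 and 9.96 in TNF, of 9.74, 9.64 and 9.66 in Dex, and of 9.75 and 9.86 in CI. TNF and CI overlapped, and Dex lay under CI by a gap of only 0.01. The differences were 0.08 for TNF minus CI (95% interval -0.13 to 0.29), -0.12 for Dex minus CI (-0.33 to 0.09) and 0.21 for TNF minus Dex (0.02 to 0.39), and none was called (limma adjusted p = 0.567, 0.4216 and 0.1174). Its other probe set, a dim one averaging 5.81, had a Dex minus CI difference of the opposite sign, 0.26. Both receptor promoters held a match to the gamma-activated site that STAT dimers read, searched as TTCNNNGAA, a match also found in 8.3% of all promoters.
Ifnar2: tgccaaggccTTCCTGGAAgaagagagtac
Ifnar1: ggcgggggcgTTCACGGAAggggcggggcg
These windows lay at chr16:91372559-91372588 and chr16:91485200-91485229, both on the plus strand, the first with its match at positions -214 to -206 from the start and the second with its match across the start.

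Stat2 and Irf9, which encode subunits of the STAT2-IRF9 complex, were lower in both TNF and Dex than in CI, in comparisons that share the CI arrays. Irf9, the DNA-binding subunit, had 9.44, 8.66 and 8.79 in TNF, 8.49, 8.21 and 8.04 in Dex, and 10.19 and 10.17 in CI. The models did not overlap, and CI was the highest. Irf9 fell by 1.22 ± 0.19 in TNF against CI, or 2.32-fold (limma adjusted p = 0.001137), and fell by 1.93 ± 0.19 in Dex against CI, or 3.82-fold (limma adjusted p = 3.211e-05). TNF was above Dex by 0.72 ± 0.17 (limma adjusted p = 0.01243), a call that rested on TNF replicate 1, without which the difference was 0.48.

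Stat2, whose product carries the transactivation domain of the complex, had 8.93, 7.86 and 8.30 in TNF, 8.06, 7.97 and 7.36 in Dex, and 9.36 and 9.34 in CI. The CI arrays were above every other array, while TNF and Dex overlapped. The mean was 8.36 ± 0.54 in TNF (SD, n = 3) and 7.80 ± 0.38 in Dex (n = 3), against 9.35 ± 0.02 in CI (n = 2). Stat2 fell by 1.55 ± 0.26 in Dex (2.93-fold, limma adjusted p = 0.001404) and fell by 0.98 ± 0.26 in TNF (1.98-fold, limma adjusted p = 0.02003). The TNF call was lost without TNF replicate 2 (-0.73, limma adjusted p = 0.05092), TNF replicate 3 (-0.95, adjusted p = 0.05995), without CI replicate 1 (-0.97, adjusted p = 0.09617) and without CI replicate 2 (-1.0, adjusted p = 0.1052). TNF minus Dex was 0.56 ± 0.24 (limma adjusted p = 0.1207), not called, but 0.82 without TNF replicate 2 (limma adjusted p = 0.02282). The second Stat2 probe set gave -0.93 for TNF minus CI and -1.38 for Dex minus CI, both called.

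Of the remaining interferon regulatory factors, Irf7 separated Dex from the other models. Irf7, the factor that amplifies interferon production once induced, had 10.74, 10.42 and 10.52 in TNF, 9.11, 9.14 and 8.63 in Dex, and 10.73 and 10.92 in CI. TNF and CI overlapped, and every Dex array was more than 1 log2 unit under both. Irf7 fell by 1.86 ± 0.15 in Dex against CI, or 3.64-fold (limma adjusted p = 5.474e-06), and TNF was 1.60 ± 0.13 above Dex, or 3.03-fold (limma adjusted p = 7.637e-06). For TNF minus CI the difference was -0.26 ± 0.15 with an interval of -0.59 to 0.06 (limma adjusted p = 0.2317). Its promoter held no match to the response element searched above. Irf7 had a single probe set, as had Irf1, Irf9 and Ifih1, so the array gave no second measurement of these 4.

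Irf1, a factor induced through STAT proteins and NF-kB and best known downstream of interferon gamma, had 11.22, 10.68 and 10.87 in TNF, 10.83, 10.83 and 10.55 in Dex, and 10.87 and 11.10 in CI. TNF overlapped both other models, and Dex lay under CI by a gap of 0.04. No contrast was called, with -0.06 for TNF minus CI (95% interval -0.39 to 0.26), -0.25 for Dex minus CI (-0.57 to 0.07) and 0.19 for TNF minus Dex (-0.10 to 0.48). The limma adjusted p-values were 0.7898, 0.2699 and 0.3746. The sign of TNF minus CI was not stable, being 0.03 after quantile normalization and 0.06 without TNF replicate 2. The Irf1 promoter was the only one of the 11 with a kappa B element, which NF-kB reads and which occurred in 8.46% of all promoters, and it also held a gamma-activated site. Both are shown because they are the best known inputs of this gene.
Irf1 gamma-activated site: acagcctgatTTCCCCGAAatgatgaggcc
Irf1 kappa B element: agtccgggccGGGGAATCCCgctaagtgtt
They lay on the plus strand at chr11:53769914-53769943 and chr11:53769991-53770020, with matches at positions -90 to -82 and -13 to -4 from the start. The palindromic glucocorticoid response element, searched as GNACA, a gap of 3 bases and TGTNC, occurred in 0 of the 11 promoters and in 0.475% of all promoters. Matches of different motifs overlapped in 0 cases in these promoters.

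Irf3, which is made constitutively and activated by phosphorylation, had 9.92, 9.92 and 9.95 in TNF, 10.19, 10.28 and 10.36 in Dex, and 9.98 and 10.05 in CI. It was the one member with every Dex array above every CI array. Dex minus CI was 0.26 ± 0.08 (limma adjusted p = 0.02845) and TNF minus Dex was -0.34 ± 0.07 (limma adjusted p = 0.003715), both past the p threshold and under the size limit of 0.5. TNF minus CI was -0.08 with an interval of -0.25 to 0.08 (limma adjusted p = 0.4727). The other 3 Irf3 probe sets had Dex minus CI differences of 0.16, 0.28 and 0.13, none called.

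Both RNA sensors were highest in CI and lowest in Dex, and Ifih1 had the largest Dex minus CI difference of the 9 genes. Ifih1, whose product MDA5 binds long double-stranded RNA, had 9.69, 8.85 and 9.24 in TNF, 8.28, 7.97 and 7.89 in Dex, and 10.35 and 10.43 in CI. The models did not overlap, with TNF between the other two. Ifih1 fell by 1.13 ± 0.19 in TNF against CI, or 2.19-fold (limma adjusted p = 0.001693), and fell by 2.35 ± 0.19 in Dex against CI, or 5.10-fold (limma adjusted p = 7.191e-06). TNF was above Dex by 1.22 ± 0.17, or 2.32-fold (limma adjusted p = 0.0004137).

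Ddx58, whose product RIG-I recognises RNA with a 5′ triphosphate, had 11.31, 10.41 and 10.64 in TNF, 9.95, 9.86 and 9.33 in Dex, and 11.64 and 11.62 in CI. It kept the same order of models as Ifih1, again with no overlap, and TNF replicate 1 lay only 0.32 under the lower CI array. Ddx58 fell by 1.92 ± 0.23 in Dex against CI, or 3.77-fold (limma adjusted p = 0.000126), and TNF was 1.07 ± 0.21 above Dex (limma adjusted p = 0.003465). It fell by 0.85 ± 0.23 in TNF against CI, or 1.80-fold (limma adjusted p = 0.02213), a call lost without TNF replicate 2 (-0.66, limma adjusted p = 0.06524), TNF replicate 3 (-0.77, adjusted p = 0.07335), without CI replicate 1 (-0.84, adjusted p = 0.1014) and without CI replicate 2 (-0.85, adjusted p = 0.1135). Of its other 2 probe sets, one gave -0.86 in TNF and -1.61 in Dex against CI and 0.75 for TNF minus Dex, all called. The second, at 7.02 to 7.20 on the 8 arrays, gave 0.08, 0.05 and 0.03, and the probe sets of this gene therefore disagree.

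**Figure D2:**
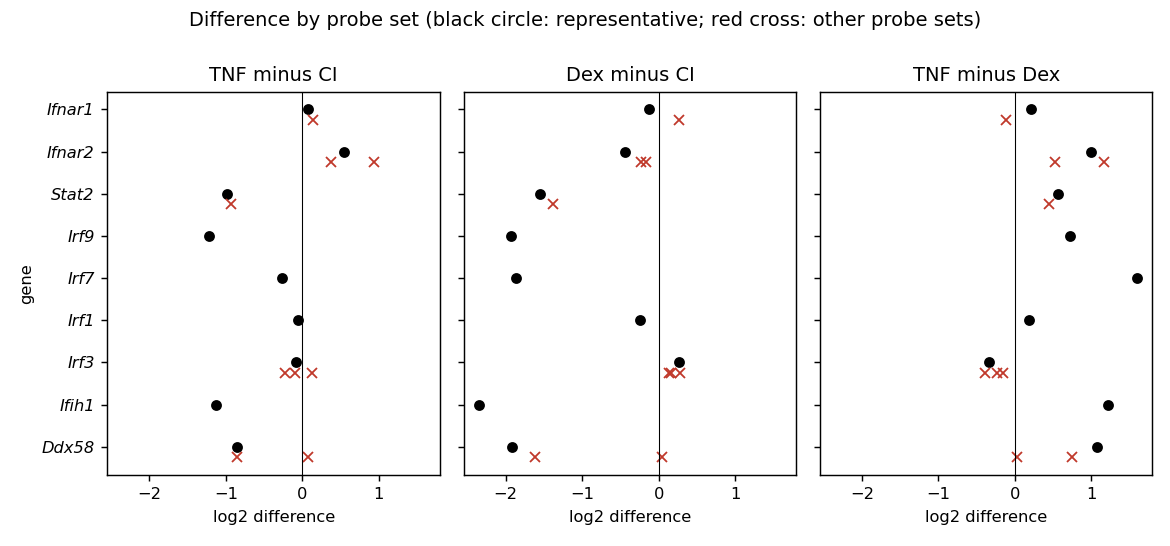
Log2 difference (horizontal axis) of every probe set of the 9 genes, with black circles for the probe set with the highest mean and red crosses for the 9 others. The crosses of Stat2 and Ifnar2 lay on the same side of 0 as the circle in the 3 contrasts, and one Ddx58 cross sat at 0.08, 0.05 and 0.03.

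Counted over the 9 members, TNF minus CI had 1 called higher (Ifnar2) and 4 called lower (Stat2, Irf9, Ifih1 and Ddx58), where 3.00% of all genes were called higher and 5.23% lower. Dex minus CI had 0 called higher and 5 called lower (Stat2, Irf7, Irf9, Ifih1 and Ddx58), where 3.33% of all genes were called higher and 5.67% lower. TNF minus Dex had 5 called higher (Irf7, Irf9, Ifnar2, Ifih1 and Ddx58) and 0 called lower, where 4.14% of all genes were called higher and 3.16% lower. The median difference of the members was -0.26, -1.55 and 0.72 in these contrasts, against 0.03, 0.02 and 0.01 over all genes. At an unadjusted p under 0.05 the counts were 5, 7 and 8 of 9. The share of all genes under that limit was not counted, so these counts have no baseline. In Dex minus CI the arrays of the models did not overlap for any member, with 8 lower and 1 higher in Dex, where 23.1% of all genes were lower and 24.9% higher without overlap. The contrasts share their arrays in pairs, so these counts are not independent of each other.

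**Figure D3:**
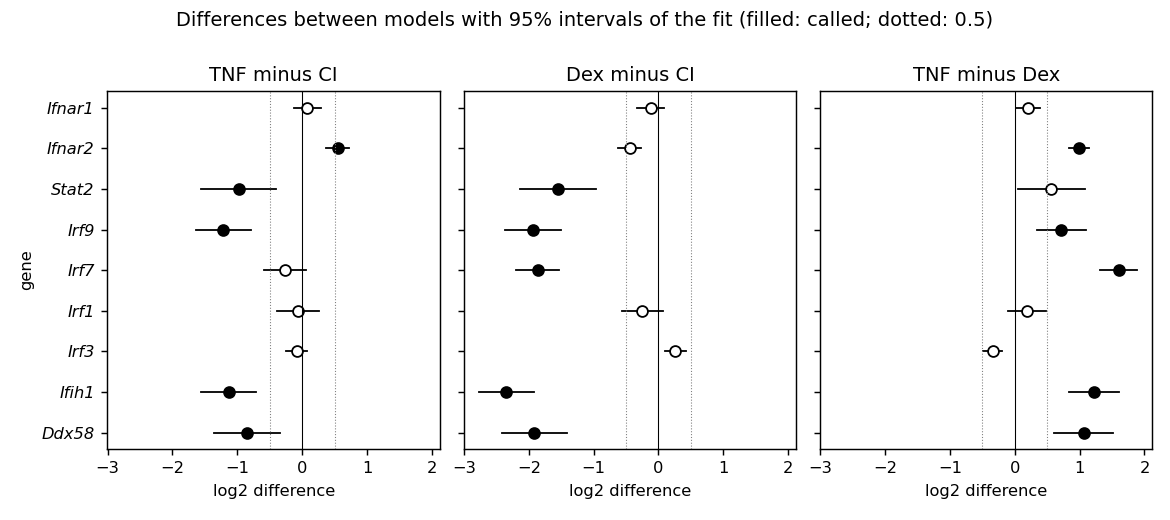
Log2 difference (horizontal axis) of each gene in the 3 contrasts, with the 95% interval of the limma fit, filled circles for called differences and dotted lines at 0.5 in either direction. The Dex minus CI panel shows 5 called genes between -2.35 for Ifih1 and -1.55 for Stat2, and Irf3 as the only gene to the right of 0.

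Single arrays stood apart in the same direction for many of these genes. TNF replicate 1 was the highest TNF array in 8 of 9 members, all but Irf3, against 34.5% of all genes. Dex replicate 3 was the lowest Dex array in 6 members (Stat2, Irf1, Irf7, Irf9, Ifih1 and Ddx58), against 36.4% of all genes. The SD between TNF arrays was 0.54 for Stat2, 0.47 for Ddx58, and 0.42 for each of Irf9 and Ifih1. Between the CI arrays, only 2 in number, it was 0.02, 0.01, 0.02 and 0.05 for the same genes. In TNF against CI it was 0.28 and 0.16 for Irf1, 0.17 and 0.13 for Irf7, 0.16 and 0.08 for Ifnar1, and 0.08 and 0.01 for Ifnar2. Irf3 went the other way, with 0.02 in TNF and 0.05 in CI.

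Of 2 RNA-quality measures, the 3′ minus 5′ difference of the beta-actin control probe sets was 0.74, 0.71 and 0.83 in TNF, 0.49, 0.49 and 0.75 in Dex, and 0.66 and 0.54 in CI. TNF lay above CI in it, and Dex replicate 3 stood above the other Dex arrays. The same difference for Gapdh was 0.08, 0.12 and 0.14 in TNF, 0.11, 0.07 and 0.08 in Dex, and 0.16 and 0.14 in CI, so that no TNF array exceeded a CI array and Dex replicate 3 lay within the range of the other Dex arrays. With the beta-actin measure as a covariate, TNF minus CI had 2 members called, Irf9 (-1.06, limma adjusted p = 0.01466) and Ifih1 (-1.04, adjusted p = 0.01824), while Dex minus CI and TNF minus Dex each had 5.

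**Figure D4:**
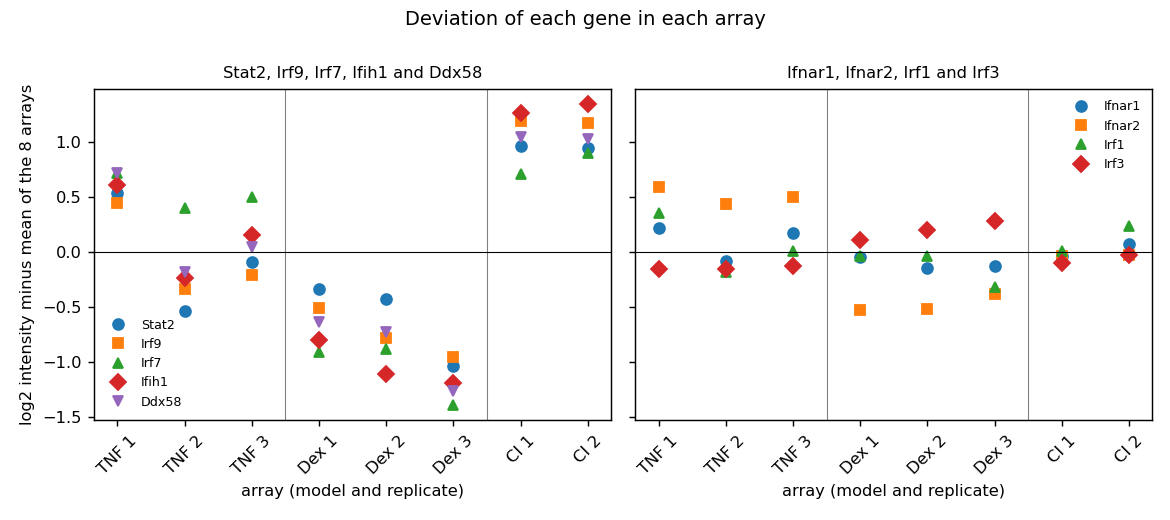
Log2 intensity minus the gene's mean over the 8 arrays (vertical axis) for each array (horizontal axis), with the 5 widest-ranging genes on the left and the other 4 on the right. On the left every CI point is above 0 and every Dex point below it, and TNF replicate 1 is the highest TNF array for all 5.

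The member with the largest SD over the 8 arrays was Ifih1 (1.01), followed by Irf7 (0.91), Ddx58 (0.86), Irf9 (0.84), Stat2 (0.73), Ifnar2 (0.46), Irf1 (0.21), Irf3 (0.17) and Ifnar1 (0.13). The non-member genes most like Ifih1 over the 8 arrays were Tlr3 (Pearson's r = 0.999), Parp12 (0.997), Gm20559 (0.997), Gm4951 (0.996) and Dbp (0.994). Tlr3 encodes the endosomal receptor of double-stranded RNA, Parp12 an ADP-ribosyltransferase and Dbp a transcription factor of the circadian clock. Tlr3 had 8.75, 8.09 and 8.43 in TNF, 7.54, 7.37 and 7.26 in Dex, and 9.32 and 9.35 in CI, with the 8 arrays in the same order as in Ifih1. Dbp had 11.27, 10.55 and 10.86 in TNF, 10.32, 10.05 and 10.10 in Dex, and 11.49 and 11.59 in CI. Among the 10 pairs of the 5 widest-ranging members r was 0.81 to 0.98, and Irf3 ran against Ifih1 with an r of -0.733. These points share the same 8 arrays and 3 models, so each r is a description and was not tested.

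The other genes of the pathway were described from 6 lists with 93 symbols, of which 85 were measured. Upstream of the members, none of the 6 measured interferon ligand genes was called in any contrast at an adjusted p under 0.05 and a difference over 0.5. Over all genes, 3.00% to 5.67% were called in each direction of a contrast at these limits. With no size limit, 1 of the 6 ligand genes was called higher in TNF minus CI. The share of all genes in that setting was not counted. Ifnb1, which encodes interferon beta, stood at 6.87 in TNF, 6.73 in Dex and 6.83 in CI, and Ifng at 4.55 in TNF, 4.66 in Dex and 4.67 in CI, all below the median gene.

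Of the 18 receptor kinases, other STATs, cytokine receptors and inhibitors, TNF minus CI had 2 higher and 1 lower (all genes: 3.00% and 5.23%). Dex minus CI had 0 higher and 1 lower (all genes: 3.33% and 5.67%). TNF minus Dex had 3 higher (all genes: 4.14%) and 1 lower (all genes: 3.16%). The last was the interferon gamma receptor gene Ifngr1 (-0.51, limma adjusted p = 0.0213), which was not called without TNF replicate 2, TNF replicate 3 or Dex replicate 1, after quantile normalization or with the beta-actin covariate. Usp18, the protease that binds the Ifnar2 chain and dampens interferon signalling, fell by 2.11 ± 0.30 in TNF (limma adjusted p = 0.0005515) and fell by 3.80 ± 0.30 in Dex (adjusted p = 5.265e-06) against CI. The kinase gene Jak2 and the receptor gene Il6st rose in TNF over CI by 0.90 ± 0.14 and 0.69 ± 0.15, the second of which was not called without CI replicate 2. The kinases that serve the type I receptor itself, Jak1 and Tyk2, were not called, with TNF minus CI differences of -0.11 and 0.07. None of the 4 other IRF genes measured (Irf2, Irf4, Irf5 and Irf8) was called in any contrast at an adjusted p under 0.05 and a difference over 0.5. Irf2 (-0.48, limma adjusted p = 0.04623, for TNF minus CI and -0.45, adjusted p = 0.04102, for TNF minus Dex) and Irf4 (-0.34, adjusted p = 0.007927, for TNF minus Dex) were past the p threshold and under the size limit. Of the 2 genes of IRF2-binding proteins listed with them, Irf2bp1 was not called, and the corepressor gene Irf2bp2 rose by 0.81 ± 0.18 in Dex over CI, which did not hold without CI replicate 1 (0.63, limma adjusted p = 0.09743), and its TNF minus Dex difference was -0.66, not called without TNF replicate 2, TNF replicate 3 or Dex replicate 2.

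Of the 18 other sensors, adaptors and kinases of nucleic acid sensing, TNF minus CI had 1 higher and 8 lower (all genes: 3.00% and 5.23%). Dex minus CI had 0 higher and 8 lower (all genes: 3.33% and 5.67%), and TNF minus Dex 6 higher and 0 lower (all genes: 4.14% and 3.16%). The list's median differences were -0.20, -0.24 and 0.22. Dhx58, the third RIG-I-like helicase gene, fell by 1.18 ± 0.23 in TNF and fell by 2.35 ± 0.23 in Dex against CI, the first of which ended without CI replicate 2 (limma adjusted p = 0.05233). Zbp1, a sensor of left-handed nucleic acids, fell by 3.32 ± 0.11 in Dex against CI, and the helicase gene Ddx60 fell by 3.02 ± 0.21. Ikbke, a kinase of IRF3 and IRF7 that NF-kB induces, went the other way and rose in TNF by 1.37 ± 0.12 over CI and by 1.30 ± 0.11 over Dex. Oas1a, an RNA-activated synthetase gene, stood at 11.36 in TNF, 9.0 in Dex and 11.27 in CI. The TNF minus CI count of 8 lower was 5 without TNF replicate 3 or after quantile normalization and 4 without CI replicate 2.

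The targets of the STAT2-IRF9 complex had the largest median differences of the 6 lists. Of 20 measured, 13 fell in TNF against CI (all genes: 5.23%) and 20 fell in Dex against CI (all genes: 5.67%). In TNF minus Dex, 17 were higher (all genes: 4.14%). In these contrasts 0 were called in the opposite direction, and the medians were -0.72, -2.03 and 1.41. Ifit1, an antiviral RNA-binding protein gene, averaged 10.75 ± 1.0 in TNF (SD, n = 3), 8.31 ± 0.48 in Dex (n = 3) and 12.79 ± 0.05 in CI (n = 2), and fell by 4.47 ± 0.44 in Dex (limma adjusted p = 2.54e-05). Ifit3, of the same family, fell by 3.92 ± 0.32 in Dex against CI, and Oasl2, of the oligoadenylate synthetase family, fell by 3.54 ± 0.27. Rsad2, which encodes viperin, fell by 2.16 ± 0.21 in TNF against CI. The TNF minus CI count of 13 was 7 without TNF replicate 3, 6 without CI replicate 1, 5 without CI replicate 2 and 3 with the beta-actin covariate. Leaving out CI replicate 2 ended that call for Ifit1 (limma adjusted p = 0.05742) among others.

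Of the 17 targets of IRF1 and interferon gamma, TNF minus CI had 3 higher and 2 lower (all genes: 3.00% and 5.23%). Dex minus CI had 0 higher and 10 lower (all genes: 3.33% and 5.67%), and TNF minus Dex 13 higher and 0 lower (all genes: 4.14% and 3.16%). The medians were 0.02, -1.0 and 0.69. Cxcl9, a chemokine gene, rose in TNF by 1.43 ± 0.09 over CI and by 2.43 ± 0.08 over Dex. Cxcl10, a related chemokine gene, fell by 4.27 ± 0.35 in Dex and fell by 1.58 ± 0.35 in TNF against CI, and leaving out CI replicate 2 ended the second call (limma adjusted p = 0.06812). The immunoproteasome subunit gene Psmb10 rose in TNF by 0.78 ± 0.09 over CI, and its Dex minus CI difference of 0.11 was not called. Psmb9 fell by 1.71 ± 0.09 in Dex against CI, and its TNF minus CI difference of 0.14 was not called. Both were called higher in TNF than in Dex, Psmb10 by 0.68 and Psmb9 by 1.85 ± 0.08. Genes of these lists were placed there from general knowledge of the pathway, with earlier results of these data known. Several respond to more than 1 interferon.

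**Figure D5:**
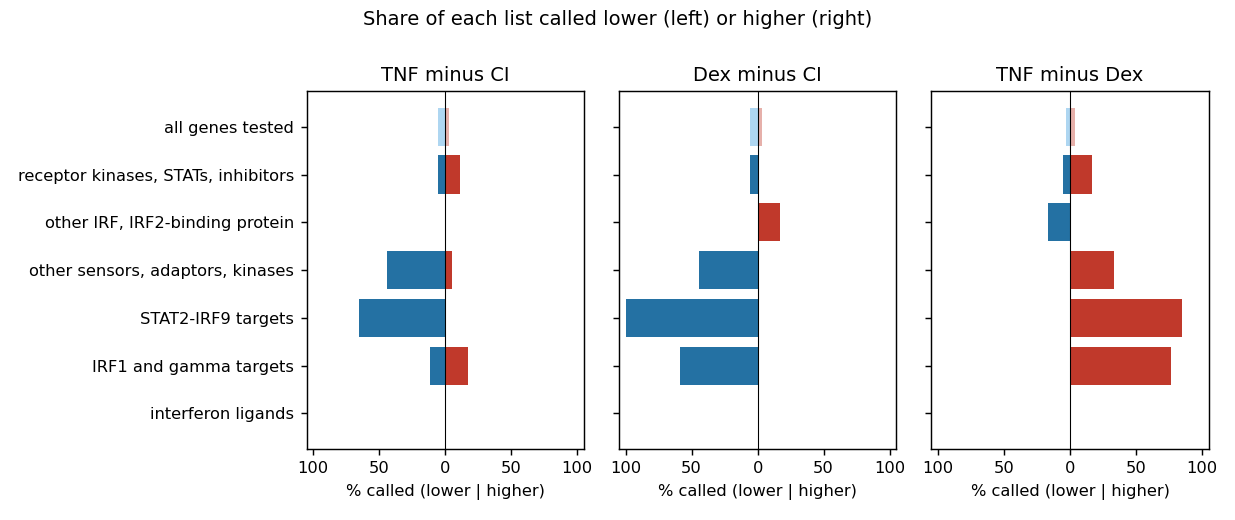
Share of each pathway list called higher (red, right of 0) or lower (blue, left of 0) in the 3 contrasts, in percent of its measured genes, with all genes tested in pale bars at the top. The STAT2-IRF9 targets had 13 of 20 lower in TNF and 20 of 20 lower in Dex than in CI, and the interferon ligands had none called.

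Cell type markers moved between the models as well. Over all genes, 3.00% were called higher and 5.23% lower in TNF minus CI, and 3.33% and 5.67% in Dex minus CI. In TNF minus Dex these shares were 4.14% and 3.16%. Of 12 measured leukocyte markers, Cd14 and Lyz2 rose in TNF over CI by 1.44 ± 0.13 and 0.55 ± 0.07. Cd14 also rose in Dex by 0.98 ± 0.13, and Lyz2 was 0.95 ± 0.06 higher in TNF than in Dex. The 12 had a summed intensity of 4161 to 4464 in TNF, 3000 to 3035 in Dex and 2983 to 3018 in CI. In TNF, Dex and CI, Lyz2 stood at 11.04, 10.09 and 10.49, Cd14 at 9.5, 9.03 and 8.06, Csf1r at 8.90, 8.68 and 8.5, and Cd3e at 8.31, 8.41 and 8.3, all above the median gene. The other 8 lay below it, among them the macrophage genes Adgre1 and Itgam, at 6.72 and 5.77 in TNF, 6.84 and 5.64 in Dex, and 6.71 and 5.82 in CI. Of 8 measured preadipocyte and fibroblast markers, 3 fell and 1 rose in Dex against CI, 1 rose in TNF against CI, and 5 were higher and 0 lower in TNF than in Dex. The rise in Dex was that of Zfp521, whose limma adjusted p was 0.07444 when CI replicate 1 was left out and 0.05054 when CI replicate 2 was, and the 5 became 3 with the median over probe sets. Their sum was 32204 to 36951 in TNF, 15751 to 18784 in Dex and 31793 to 33450 in CI. That sum is weighted to the brightest genes, Col3a1, Dlk1 and Col1a1, which were the 3 that fell in Dex. Pdgfra, Pdgfrb, Cd34 and Thy1 were not called in Dex minus CI. The leukocyte sum is likewise weighted to Lyz2, the brightest of the 12. Of 9 measured adipocyte markers, 6 fell in TNF and 3 fell in Dex against CI. The 6 became 4 with the beta-actin covariate, 5 after quantile normalization and 7 with median centring. Lep, at -0.93 in TNF and -0.89 in Dex against CI, was -0.48 and -0.43 without CI replicate 1, under the size limit. The adipocyte sums were 75619 to 78133 in TNF, 93339 to 98562 in Dex and 99489 to 99596 in CI. The part of these shifts in the values of the 9 genes was not tested.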

How the data were processed

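RNA from 8 samples of 3T3-L1 adipocytes, in 3 models, was hybridised to Affymetrix mouse arrays of 45101 probe sets. The deposited values are intensities on a linear scale, made by the authors with RMA in affyPLM according to their methods. No source used here says whether the logarithm of RMA was then removed. The design had assumed log2 values, so log2 was taken with no pseudocount. Arrays have no read depth, and their number limits the precision.

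The platform annotation gave 34958 probe sets 1 gene symbol, 932 several and 9211 none, and the first formed 18194 genes. The 3 models were fitted together with limma 3.58.1 in R 4.3.3 (lmFit and eBayes, two-sided, Benjamini-Hochberg adjustment over all genes), with 5 residual degrees of freedom, and the step was tested on simulated data. Other probe sets were read from a fit of 44105 probe sets. The members, lists and rules were chosen with earlier results of these data known. The text names the 9 members, up to 4 called genes per list and contrast with the largest differences, the cell type markers, and the 5 genes most like the member with the largest SD. A few list members outside this rule (Jak1, Tyk2, Ifnb1, Ifng, Irf2, Irf4, Irf5, Irf8, Irf2bp1) were added after their values were seen. Alternatives were other scalings, a low-level filter (mean log2 of at least 6, leaving 14948 genes), other probe set rules, the replicate block, pairwise fits, other eBayes settings, array weights, a covariate, other size limits, and leaving out each array. Promoters were read from a RefSeq table of 250 bases before to 50 after each start. Figures used Python 3.11.15.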

Additional observations from a re-analysis of the deposited data

How the results depend on the processing

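The Dex minus CI count of 5 members called stayed at 5 in every alternative but the one with no size limit, where it was 7. For TNF minus CI the 5 became 3 with eBayes trend and robust settings (Stat2 and Ddx58 lost), 2 with the beta-actin covariate, 2 at a size limit of 1, and 3 to 5 when arrays were left out in turn. For TNF minus Dex the 5 became 3 at a size limit of 1 (Irf9 and Ifnar2 lost), and 4 to 6 when arrays were left out. Same-numbered arrays did not deviate together throughout, with correlations of 0.33, -0.09 and 0.21 between TNF and Dex, and the labels tie the numbers to no shared culture or day. With the replicate number as a block the counts were 5, 5 and 5, so the block changed no call of a member.

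Signs turned only for uncalled differences or other probe sets. Ddx58 gave 0.08 for TNF minus CI and 0.05 for Dex minus CI with its probe set at 7.02 to 7.20. Ifnar1 gave 0.26 for Dex minus CI with its dim probe set, which also had the highest SD, 0.07 with the median over probe sets, and -0.12 for TNF minus Dex. Irf1 gave 0.03 for TNF minus CI after quantile normalization, 0.10 with the covariate, and -0.21 to 0.06 as arrays were left out, above 0 without TNF replicate 2 or CI replicate 2. Irf3 gave 0.00 for TNF minus CI after quantile normalization and 0.12 with another probe set. The Ddx58 TNF minus Dex difference fell short of a call, at 0.38, with the median over probe sets. The cause of these changes was not tested. With 2 CI arrays, each comparison with CI leans on the spread shared by all models, and without one of them the lone CI array is assumed to vary like the others.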
